A study of Mus musculus with 4 samples.

Results

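The nuclear-encoded genes of the mitochondrial respiratory chain and ATP synthase were described in cytosolic RNA of mouse macrophages. Members were chosen by name, as genes whose symbol starts with Nduf, Uqcr, Cox4 to Cox8 or Atp5, or is Sdha, Sdhb, Sdhc or Sdhd, and that have at least 1 transcript annotated as protein coding. The rule uses no measured value, though it was set with earlier results of these data known. It gave 94 of 55536 annotated genes, of which 36 encode subunits of complex I, 4 of complex II, 8 of complex III, 18 of complex IV and 17 of complex V. Another 8 are assembly factors of complex I, and 3 are related genes, which are Cox7a2l and Ndufa4l2 beside complex IV and Atp5s beside complex V. Ndufa4 was placed with complex IV, where its product is now known to sit. The symbol Atp5o has 2 gene entries, and the 94 members therefore carry 93 symbols. They lie on 19 chromosomes, and 3 of them, Ndufa1, Ndufb11 and Cox7b, are X-linked.

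The cells were bone marrow-derived macrophages, primary cells grown out of marrow, of C57BL/6J mice, taken 15 minutes after exposure to 100 ng/ml lipid A, the part of bacterial lipopolysaccharide that Toll-like receptor 4 recognises. The cytosolic fraction of the cells gave ribosome-depleted total RNA, and 4 libraries, labelled as biological replicates 1 to 4, form the single group. The labels name 1 donor record for all 4 libraries and do not say whether animals or cultures were separate, and every p-value therefore rests on a spread between libraries that may be technical. Unstimulated cells and nuclear RNA were not analysed here, and the values are levels in stimulated cells and differences between libraries, not responses to lipid A.

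The respiratory chain passes electrons from NADH through complex I, or from succinate through complex II, by way of ubiquinone to complex III, cytochrome c and complex IV, which reduces oxygen. Complexes I, III and IV pump protons across the inner mitochondrial membrane, and complex V, the ATP synthase, uses the gradient to make ATP. Mitochondrial DNA encodes a few core subunits of complexes I, III, IV and V, and every other subunit is made from nuclear genes, translated in the cytosol and imported. In macrophages, lipopolysaccharide is known to shift metabolism towards glycolysis over hours, with succinate dehydrogenase as a source of signals.

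Replicates 1 to 4 held 30088678, 47961117, 40282297 and 45771235 expected counts on annotated genes. All 8 macrophage markers looked at reached a mean of 1 TPM (a length-corrected share of all transcripts), and none of 17 markers of T cells, B cells, neutrophils, erythroid, stromal and muscle cells did, the highest of these averaging 0.238 TPM. Summed over each list, macrophage markers came to between 5274 and 8611 TPM per library and the other markers to between 0.37 and 1.85 TPM. The signal recognition particle RNA 7SL took 57.5%, 63.3%, 60.9% and 57.1% of all TPM in replicates 1 to 4, and the members together took 5430, 3754, 3359 and 5409 TPM. Among the remaining TPM the members held 1.28%, 1.02%, 0.860% and 1.26%. In bulk RNA, fewer cells with a transcript and less of it per cell cannot be told apart. A member's TPM was commonly higher in replicates 1 and 4 than in replicates 2 and 3. This pattern was seen in 83 of the 86 members that averaged 1 TPM or more and in 79.0% of all genes at that level. Its cause was not tested. The tests between libraries below instead use counts scaled by TMM, which sets each library by the bulk of its genes.

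The 3 genes of the ATP synthase c subunit, the protein of the rotating membrane ring, are shown first because they encode the same mature protein and include Atp5g2, the member whose level differed most between the deposited tables. Atp5g1 lies on chromosome 11 at 96068852 to 96075670, Atp5g2 on chromosome 15 at 102662864 to 102672352 and Atp5g3 on chromosome 2 at 73908447 to 73911326, each on the minus strand of mm10 (GRCm38). Their coding sequences were read from GENCODE M21 transcripts and end in 78 identical residues. Before these lie 58, 68 and 63 residues that differ and belong to the import sequences. Where exactly the import sequences end was not determined. The 234 bases behind those 78 residues are written below from 5′ to 3′, without the stop codon, and capitals mark the 63 positions at which the 3 genes do not all have the same base.
Atp5g1: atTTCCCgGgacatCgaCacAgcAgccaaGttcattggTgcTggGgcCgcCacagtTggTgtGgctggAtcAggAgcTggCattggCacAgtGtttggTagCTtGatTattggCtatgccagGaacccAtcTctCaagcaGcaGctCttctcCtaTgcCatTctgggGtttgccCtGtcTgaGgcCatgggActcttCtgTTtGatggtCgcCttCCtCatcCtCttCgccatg
Atp5g2: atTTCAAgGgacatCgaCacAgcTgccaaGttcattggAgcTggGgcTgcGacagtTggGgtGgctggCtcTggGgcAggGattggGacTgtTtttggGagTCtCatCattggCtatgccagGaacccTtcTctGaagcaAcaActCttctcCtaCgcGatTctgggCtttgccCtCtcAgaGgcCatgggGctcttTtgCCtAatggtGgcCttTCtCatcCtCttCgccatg
Atp5g3: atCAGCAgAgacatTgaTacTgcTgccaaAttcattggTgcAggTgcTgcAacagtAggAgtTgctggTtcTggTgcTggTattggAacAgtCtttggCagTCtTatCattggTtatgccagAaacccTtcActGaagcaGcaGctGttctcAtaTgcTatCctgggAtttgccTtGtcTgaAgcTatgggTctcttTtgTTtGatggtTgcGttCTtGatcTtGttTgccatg
Atp5g1 and Atp5g2 differed at 36 of these bases, Atp5g1 and Atp5g3 at 50, and Atp5g2 and Atp5g3 at 53, and all of the differences are silent. The longest stretch without a difference was 20 bases between Atp5g1 and Atp5g2, 11 between Atp5g1 and Atp5g3 and 8 between Atp5g2 and Atp5g3. Over the stretch in which they encode the same protein, the 3 RNAs therefore differ in sequence within every window longer than 20 bases.

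Most members were well expressed. Of the 94 members, 86 had a mean of at least 1 TPM over the 4 libraries, and their median was 42.9 TPM, against 7.74 TPM over all 10329 genes at or above that level. The median member stood above 89.6% of these genes. The 8 members below 1 TPM were Cox6a2, Cox6b2, Cox4i2, Cox7b2, Cox8b, Cox8c, Ndufa4l2 and the second Atp5o entry, and 4 of them, Cox7b2, Cox8b, Cox8c and the second Atp5o entry, had 0 counts in each library. A count of 0 allows up to 3 counts, or between 0.0626 and 0.0997 CPM (counts scaled by the library total) depending on the library, from counting error alone.

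**Figure D1:**
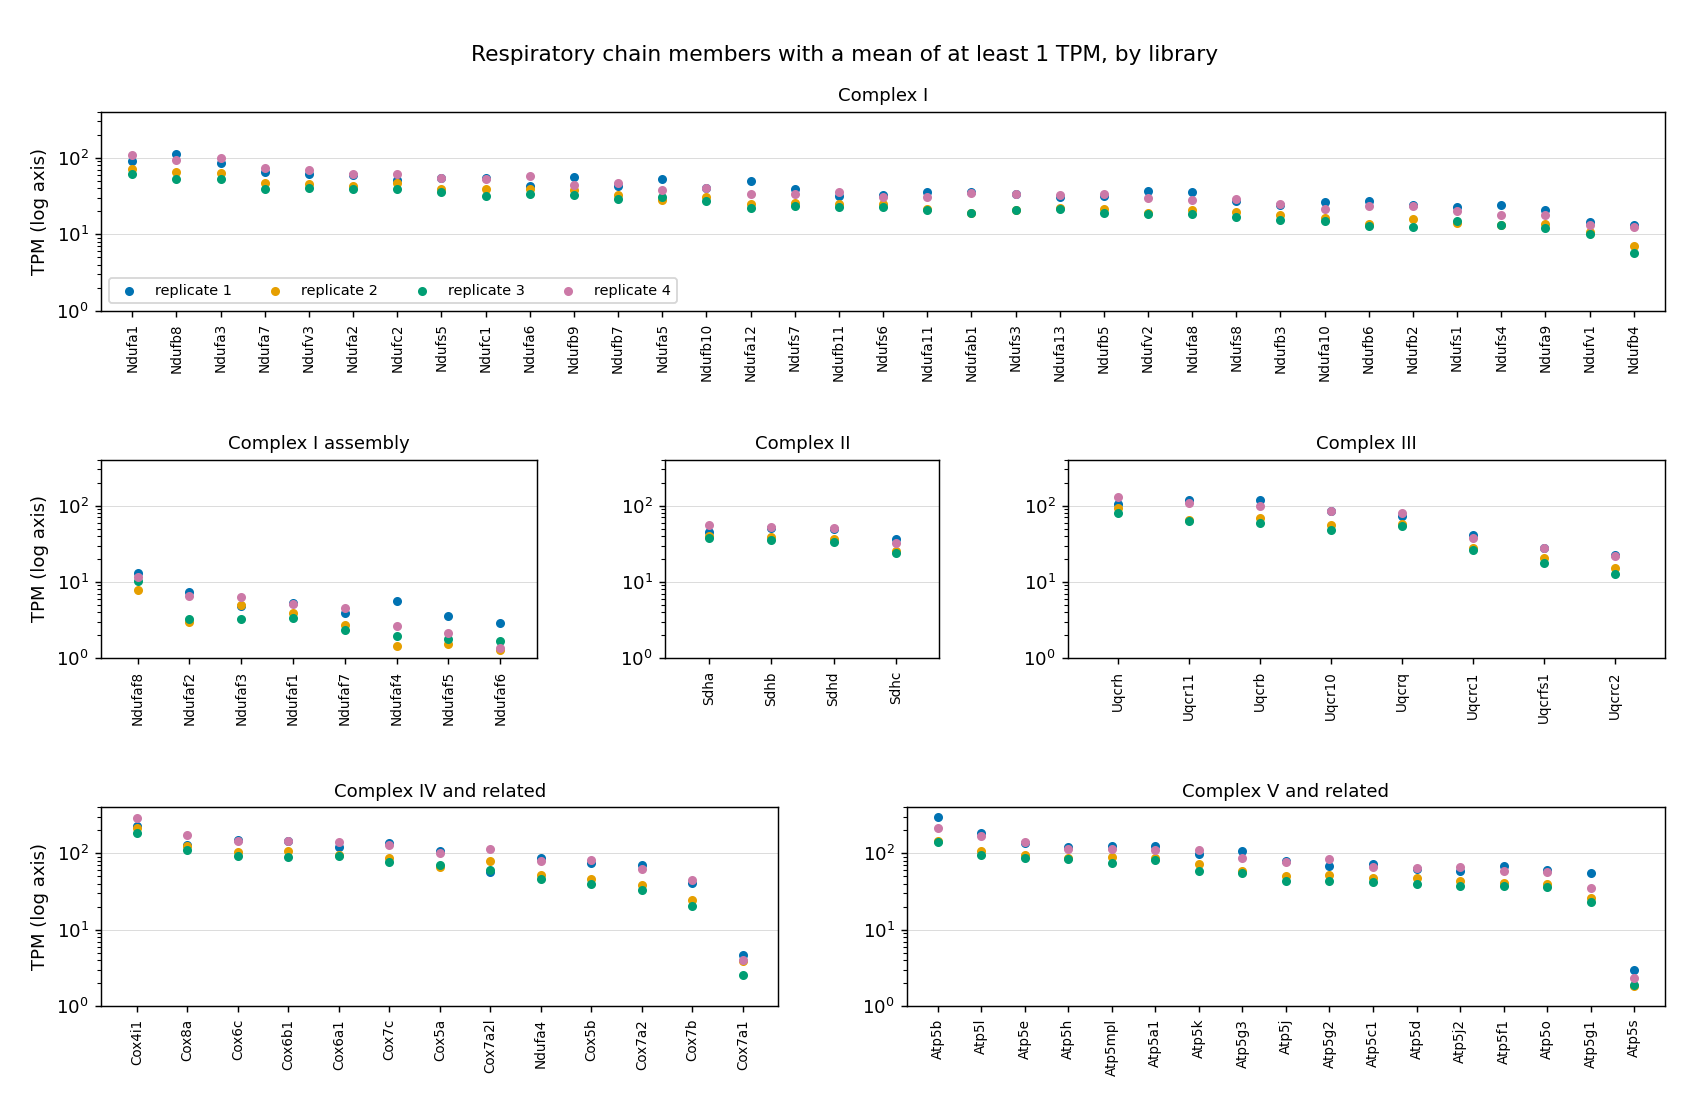
TPM of 85 of the 86 members with a mean of at least 1 TPM, on a log axis, with 1 point per library and the members of each complex ordered by their mean. Members of complex I lie mostly between 10 and 100 TPM, assembly factors of complex I mostly under 10 TPM, and Cox4i1 and Atp5b are at the top, with means of 230.1 and 199 TPM.

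Complex I, the NADH dehydrogenase, had the lowest median level of the 5 complexes. All 36 of its members were detected. Ndufa1, an accessory subunit needed for assembly of the membrane arm, had 92.1, 71.3, 60.8 and 109 TPM in replicates 1 to 4, a mean of 83.2 ± 21.4 TPM (SD, n = 4). Ndufb8 and Ndufa3, accessory subunits of the membrane arm, averaged 80.7 ± 26 and 75.2 ± 21 TPM. Ndufa1 was above Ndufa3 in each of the 4 libraries, whereas Ndufb8 changed place with either of them between libraries. The 7 nuclear core subunits, which carry the flavin, the iron-sulfur clusters and the quinone site, had a median of 26 TPM, against 32.3 TPM for the 29 accessory subunits. Ndufv1, the flavin subunit that takes electrons from NADH, was the lowest of them with 14.3, 10.6, 10.1 and 13.1 TPM. Above it lay Ndufs7 at 30.2 ± 7.2, Ndufs3 at 27.1 ± 7.2, Ndufv2 at 26 ± 8.8, Ndufs8 at 23.2 ± 6.0 and Ndufs1 at 17.9 ± 4.2 TPM. Ndufs7 was above Ndufs3, and Ndufs8 above Ndufs1, in each library, whereas the order of Ndufs3 and Ndufv2, and of Ndufv2 and Ndufs8, changed between libraries.

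The lowest subunit of complex I was Ndufb4, an accessory subunit of the membrane arm, with 13.3, 7.04, 5.65 and 12.3 TPM. Its value is uncertain, because 36.3% of its 60-base stretches occur also in the processed pseudogene Ndufb4c, which was listed at 39.8 ± 11.1 TPM and is no member, having no transcript annotated as coding. Ndufb1-ps also carries a complex I name and was left out as a noncoding entry, with 34.4 ± 12.2 TPM.

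Assembly factors of complex I, which help to build the enzyme and are not part of it, were all detected and all scarce. Their means ran from 1.80 TPM for Ndufaf6 to 10.7 TPM for Ndufaf8, with a median of 3.90 TPM. Ndufaf8 alone had a mean above that of the lowest complex I subunit.

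Complex II, succinate dehydrogenase, was the most even of the complexes. It is the one complex with no subunit from mitochondrial DNA. Sdha, the flavin subunit that oxidises succinate, had 45.5, 40.4, 37.5 and 55.4 TPM. Sdhb, the iron-sulfur subunit, had 51.4, 38.4, 35.1 and 51.9 TPM, and Sdhd, a membrane anchor, had 49.3, 36.9, 33.5 and 50.4 TPM. The other anchor, Sdhc, had 36.2, 25.1, 24.1 and 32.6 TPM and was the lowest of the 4 in every library. The highest mean was 1.52 times the lowest, whereas this ratio was 8.69 in complex I, 5.66 in complex III, 60.5 in complex IV and 5.72 in complex V over detected subunits. The ratio of complex IV sets Cox4i1 at 230.1 TPM against Cox7a1, a heart and muscle isoform, at 3.805 TPM. Its lowest generally expressed subunit, Cox7b, averaged 33.0 TPM, so that ratio rests on the isoform. Since complexes also hold unlike numbers of genes, these ratios are a description.

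In TPM, complex III fell into a higher and a lower set. The 5 small accessory subunits, Uqcrh, Uqcr11, Uqcrb, Uqcr10 and Uqcrq, had means of 66.9 to 102 TPM. Uqcrh, the hinge protein that aids the contact with cytochrome c, led with 105, 92.3, 79.4 and 131 TPM. The 2 large core proteins and the Rieske protein were lower. Uqcrc1 had 41.8, 27.7, 26.6 and 37.2 TPM, Uqcrc2 had 22.6, 15.1, 12.8 and 21.6 TPM, and Uqcrfs1, the Rieske iron-sulfur protein that takes electrons from ubiquinol, had 27.7, 20.3, 17.8 and 28.0 TPM. In TPM, no accessory subunit overlapped Uqcrc1, Uqcrc2 or Uqcrfs1 in any library. In mean expected counts the sets did not separate, with Uqcrc1 highest at 3235 and Uqcr10 lowest at 1060. Uqcrh, at 2364, lay above Uqcrc2 at 2031 and Uqcrfs1 at 1845. The lengths used averaged 442 to 547 bases for the accessory subunits and 1363 to 1878 bases for Uqcrc1, Uqcrc2 and Uqcrfs1.

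Complex IV, cytochrome c oxidase, held the member with the highest mean. Cox4i1, the general form of a subunit that regulates the enzyme, had 229.8, 215, 187 and 289 TPM. Cox8a followed with 135.7 ± 27.4 and Cox6c with 123 ± 29 TPM, both small membrane subunits. Cox6b1, Cox6a1, Cox7c, Cox5a, Ndufa4, Cox5b, Cox7a2 and Cox7b averaged 122, 113, 107, 86.7, 66.7, 60.9, 51.1 and 33.0 TPM, and Cox7b was the lowest of the 11 generally expressed subunits. Cox7c has a partial copy, the processed pseudogene Gm12338, with which it shares 11.8% of its 60-base stretches. Gm12338 was listed at 105 ± 19 TPM in the gene tables from a mean of 148 counts, and at 12.5 ± 3.4 TPM in the target tables, where Cox7c had 41.2 TPM. Against the 11 generally expressed subunits, with a median of 107 TPM, the 7 tissue-restricted isoforms known mainly from heart, muscle, lung or testis had a median of 0.035 TPM, and 1 of them, Cox7a1, reached 1 TPM.

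Nearly all TPM came from a single isoform in 6 of the 8 groups of paralogs looked at. Cox4i1 made up 99.99% of the summed TPM of Cox4i1 and the lung form Cox4i2, and Cox4i2 had 4 counts in all 4 libraries together. Cox6a1 made up 99.6% of its pair, with the heart and muscle form Cox6a2 at 0.60, 0.41, 0.47 and 0.45 TPM. Cox6b1, against the testis form Cox6b2, made up 99.9%, and Cox7b and Cox8a had all of the TPM of their groups in the gene tables. Ndufa4 had 6605 counts over the 4 libraries and its paralog Ndufa4l2, known as a target of hypoxia signalling, had 1.

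The Cox7a group was mixed. Cox7a2, the general form, had 70.8, 38.2, 33.2 and 62.2 TPM, and Cox7a1, the heart and muscle form, had 4.71, 3.91, 2.57 and 4.03 TPM. Cox7a2l, a related protein described as a factor of supercomplexes of complexes III and IV, had 57.6, 79.0, 60.4 and 115 TPM. Whether it has that role in cells of this mouse strain was not tested. Cox7a2l thus held 43.3% of the group's TPM in replicate 1, against 62.8% to 65.3% in the other 3 libraries. Cox7a2 held 53.2% in replicate 1, against 31.5% to 34.5% in the others.

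In complex V, Atp5b, the catalytic beta subunit, was highest with 298, 145, 140.2 and 215 TPM. Atp5l, a small membrane subunit, had 188, 109, 96.3 and 169 TPM, and Atp5e, the epsilon subunit of the central stalk, had 136, 95.4, 87.1 and 139 TPM. Atp5a1, the alpha subunit, which alternates with beta in the catalytic head in equal number, had 123, 86.8, 82.0 and 110 TPM. In TPM, Atp5b was higher than Atp5a1 in each library. In expected counts Atp5a1 was higher in replicates 2 to 4, with 18247, 14116 and 16094 against 14483, 11987 and 14313. The lengths used averaged 2457 bases for Atp5a1 and 1258 bases for Atp5b. The 4 detected peripheral stalk genes, Atp5h, Atp5j, Atp5f1 and Atp5o, had means of 48.5 to 102 TPM. Atp5s, known as coupling factor B and not part of the enzyme's core, was at 2.27 ± 0.53 TPM.

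RNA of all 3 c subunit genes was present. In the gene tables Atp5g3 had 109, 58.7, 54.9 and 87.2 TPM, Atp5g2 had 68.1, 52.1, 43.2 and 84.4 TPM, and Atp5g1 had 54.8, 26.2, 22.8 and 35.8 TPM. Their mean shares were 44.3 ± 2.3%, 35.9 ± 4.9% and 19.7 ± 2.7%, and Atp5g1 had the lowest share in each library. The order of Atp5g2 depended on which of the deposited tables was read. In the target tables, a second quantification of the same libraries, Atp5g2 had 5.63, 2.27, 1.16 and 6.16 TPM and a share of 8.09%, against 62.9% for Atp5g3 and 29.0% for Atp5g1.

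Across the 86 detected members, TPM was lower in the target tables by a median of 1.37 on the log2 scale, and 81 members lay within 0.5 of that shift. Atp5g2 lay 2.34 below it. The next in size were Ndufaf6, Ndufaf4, Ndufaf5 and Atp5s, which lay 0.71, 0.66, 0.64 and 0.61 above it and all had under 3 TPM. Of the 60-base stretches in Atp5g2 transcripts, 36.4% occur also in Gm10175, a transcribed processed pseudogene on chromosome 7. Gm10175 had 18.3, 14.1, 11.95 and 20.6 TPM in the gene tables and 46.6, 23.5, 15.1 and 25.2 TPM in the target tables. The summed counts of Atp5g2 and Gm10175 were 1991, 3082, 2113 and 3525 in the gene tables and 2082, 3223, 2238 and 3764 in the target tables. Atp5g2 held 81.2% to 83.0% of that sum in the gene tables and 8.27% to 22.5% in the target tables. The sum was therefore nearly equal in both kinds of table while its division was not, and the level of Atp5g2 is uncertain.

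**Figure D2:**
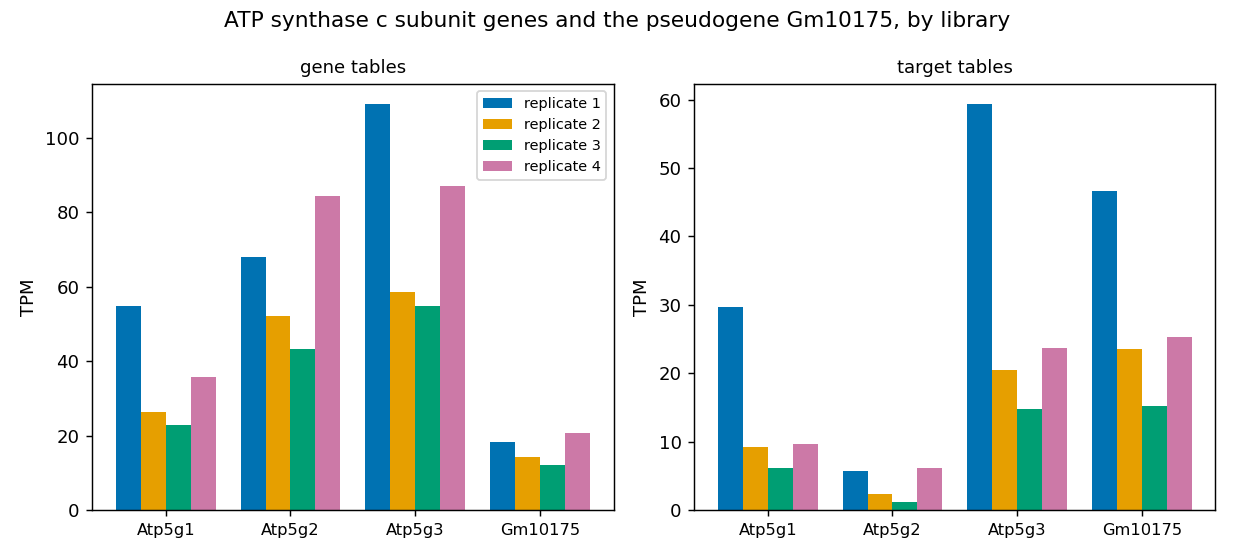
TPM of the c subunit genes and of the pseudogene Gm10175 in each library, in the gene tables (left) and in the target tables (right), whose scales differ. Atp5g3 and Atp5g1 keep their order in both panels, whereas Atp5g2 is above Gm10175 on the left and below it on the right in every library.

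Sharing on this scale was seen in few members. At least 1 stretch of 60 bases was shared with some other gene by 35 of the 94 members, and 6 shared at least 25% of their stretches with a single other gene, namely Atp5g2, Ndufb4, Ndufs3, Atp5h, Atp5l and the second Atp5o entry. The leading copies of Ndufs3, Atp5h and Atp5l were listed at 0.108, 0.47 and 4.00 TPM. An exon of 33 members overlaps another gene, on the opposite strand for 29, and for 17 of these the partner had at least 1 TPM. Without stated use of strand in counting, reads of such members and of their partners cannot be told apart.

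Not all of this RNA was assigned to transcripts annotated as coding. How well the quantification divides reads between the transcripts of a gene was not checked, so the shares below are uncertain. In the target tables, 64 of the 86 detected members had at least 90% of their TPM in transcripts annotated as protein coding, and 6 had under 50%. These 6 were Ndufa5 with 16.3%, Ndufs4 with 21.8%, Ndufaf4 with 33.2%, Ndufab1 with 36.8%, Atp5j with 41.7% and Ndufc1 with 46.1%. Ndufab1, the mitochondrial acyl carrier protein, had 62.5% in transcripts with a retained intron.

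Set side by side within each library, the complexes kept nearly the same order in TPM. The level of a complex was taken as the median of log2(TPM + 1) over its subunit genes, undetected ones included. It was 4.88 ± 0.33 for complex I, 5.43 ± 0.27 for complex II, 6.07 ± 0.34 for complex III, 5.76 ± 0.51 for complex IV and 5.99 ± 0.46 for complex V (SD, n = 4). Complex II exceeded complex I by 0.55 ± 0.11, complex III by 1.19 ± 0.07, complex IV by 0.87 ± 0.19 and complex V by 1.11 ± 0.16 on this log2 scale, and each of these differences had the same sign in 4 of 4 libraries. Complex V minus complex III was -0.08 ± 0.12, above 0 in 2 libraries and below in 2, and these complexes cannot be ordered. Complex IV was below complex III by 0.31 ± 0.18 in 4 of 4 libraries. That place rests on its undetected isoforms, since over members of at least 1 TPM the level of complex IV was 6.55 and its difference from complex I was 1.67. As scores over chosen genes these differences carry no p-value. TPM divides by length, and the median transcript length was 716, 1486, 541, 596 and 706 bases in complexes I to V. In mean expected counts the Sdh genes had 2816 to 8230, against 1060 to 3235 in complex III. The order above therefore holds for TPM, and an order in counts was not tested.

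The subunits that mitochondrial DNA encodes were set beside their nuclear partners. Within each library, the ratio of the median mitochondrially encoded TPM to the median TPM of detected nuclear subunits averaged 11.1 ± 4.1 in complex I, 6.32 ± 1.95 in complex III, 1.14 ± 0.15 in complex IV and 15.5 ± 4.9 in complex V (SD, n = 4). These medians stand on 7, 1, 3 and 2 mitochondrial genes. In the target tables, read after the data were seen, the ratio was 10.7 ± 3.6 in complex I, 6.25 ± 2.2 in complex III, 3.92 ± 0.68 in complex IV and 13.6 ± 4.8 in complex V, so the value of complex IV depends on the table. Within complex IV the mitochondrial genes differed widely, mt-Co1 averaging 1159 TPM, mt-Co3 109 TPM and mt-Co2 15.5 TPM in the gene tables. Their means were 406, 134 and 42.1 TPM in the target tables. In complex V, mt-Atp8 averaged 1871 TPM in the gene tables and mt-Atp6 205 ± 206 TPM (SD, n = 4), from 62.3 to 509 TPM. The means were 336 TPM for mt-Atp8 and 265 TPM for mt-Atp6 in the target tables. The complex V median is the midpoint of these 2 genes, so in the gene tables its ratio rests mainly on mt-Atp8. In expected counts of replicates 1 to 4, mt-Atp8 had 1617, 3397, 4173 and 4591, and mt-Atp6 had 3228, 2716, 3531 and 15966. By counts mt-Atp8 was thus the higher in replicates 2 and 3 only. Its higher TPM in each library therefore rests on the length correction. How much of the mitochondrial RNA stayed with the cytosolic fraction cannot be told from these libraries.

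Between libraries, the members' spread was small. Over the 87 members that averaged 10 counts or more, the SD of log2 CPM over the 4 libraries had a median of 0.148, against 0.255 over all 14041 genes tested, and 75 of the 87 lay below that all-gene median. Among the 8237 tested genes with mean counts of 150.1 to 4661, the 5th to 95th percentile of the members, the median SD was 0.189. The steadiest was Ndufa13, an accessory subunit of complex I also known as Grim19, with 5.55, 5.53, 5.50 and 5.52 log2 CPM in replicates 1 to 4. Uqcrq, Ndufs5 and Atp5h were also among the 5 smallest, with SDs of 0.037, 0.044 and 0.051. By complex, the median SD was 0.151 in I, 0.087 in II, 0.136 in III, 0.152 in IV and 0.142 in V.

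The assembly factors were the least steady set, with a median SD of 0.290. Ndufaf4, Ndufaf6, Ndufaf5 and Ndufaf2 had SDs of 0.58, 0.45, 0.375 and 0.375, and Cox7a2l, with 0.43, was the only one of the 5 members with the largest SD that was no assembly factor. The assembly factors had a median count of 295, against 1404 over detected members. Variation beyond counting error passed a Poisson deviance test at an adjusted p under 0.05 in 72 of the 87 tested members, or 82.8%, and in 82.8% of all tested genes. Of the assembly factors, Ndufaf2, Ndufaf4, Ndufaf5, Ndufaf6 and Ndufaf7 passed this test and Ndufaf1, Ndufaf3 and Ndufaf8 did not.

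**Figure D3:**
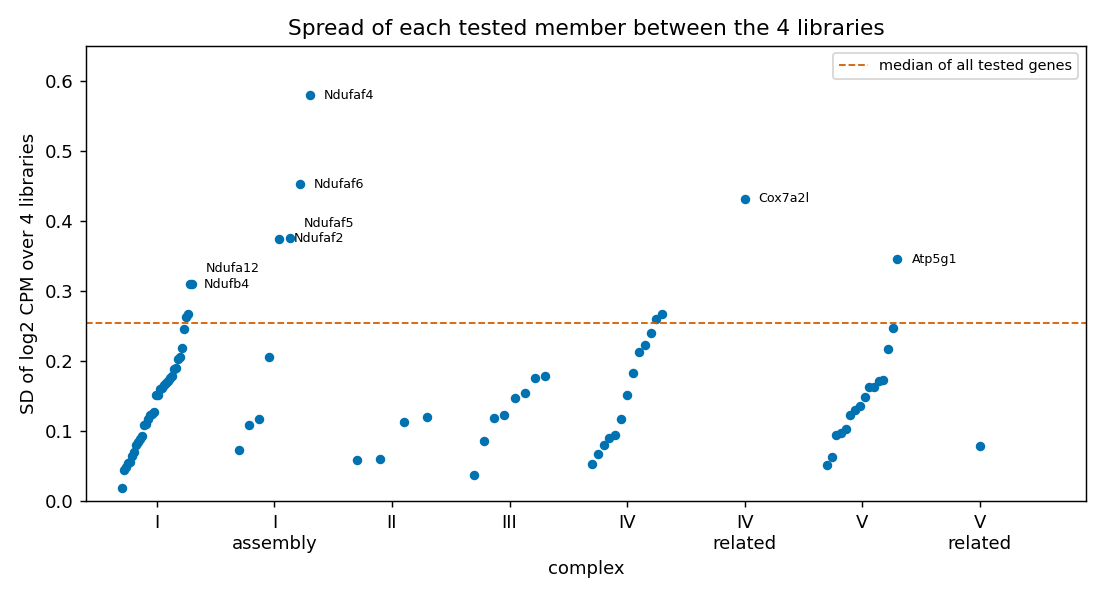
SD of log2 CPM over the 4 libraries for each of the 87 tested members, by complex, with the median of all tested genes as a dashed line at 0.255. Most members lie under the line, and 4 assembly factors of complex I and Cox7a2l are the 5 highest points.

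With a single group, the comparison left is of each replicate with the other 3. Replicate 1 differed in 11 of the 87 tested members at an adjusted p under 0.05 by edgeR's quasi-likelihood test, or 12.6%, with 9 higher and 2 lower, and DESeq2 called 9 members beside 26.3% of the genes it gave an adjusted p. At an unadjusted p under 0.05 edgeR passed 23 members and 36.3% of all tested genes. Without replicate 2, 3 or 4 fewer members passed, while every called member kept the sign of its log2 fold. These fits set 1 library against 2. The share of all tested genes passing in them was not computed, so the fall is not a result about the members. By the target tables, replicate 1 differed in 13 members, all 13 higher and 0 lower, beside 15.7% of all genes tested there, 12.7% higher and 2.98% lower. Replicate 1 stood apart over the whole gene table, with 22% of all tested genes called, 14.5% higher and 7.58% lower, so the members' share is not above the background and is not a result about them. Replicate 1 was also the library with the fewest counts, and the part of depth in its calls was not tested. The median log2 fold of replicate 1 over the other 3 was 0.12 over the members and -0.0046 over all tested genes. Calls by complex, given below, stand against the same background of all tested genes. The share of calls in a complex is therefore not a result about that complex.

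In complex I, 5 of 36 members were higher in replicate 1 and none lower. Ndufa12, an accessory subunit of the arm that takes up NADH, had 4.80 log2 CPM in replicate 1, against 4.28, 4.12 and 4.17 in replicates 2 to 4, outside their range. Its log2 fold was 0.60 ± 0.10 (SE, adjusted p = 0.018). Ndufab1, Ndufs4, Ndufv2 and Ndufa8 had log2 folds of 0.51, 0.49, 0.41 and 0.39, with adjusted p from 0.0261 to 0.0461. Of these 5 calls, the one on Ndufa12 was kept in all 7 alternatives, while the others were lost on leaving out 1 or more of the other libraries. Ndufab1 was lost without replicate 4, Ndufs4 without replicate 3 or 4 and with DESeq2, Ndufv2 without replicate 2, 3 or 4, and Ndufa8 without replicate 2, 3 or 4 and also with DESeq2 or RLE size factors. Among 8 assembly factors 1 was called. Ndufaf4, which acts in early assembly of complex I, had 4.26 log2 CPM in replicate 1, against 3.09, 3.23 and 3.03 in replicates 2 to 4, the largest difference of any member, with a log2 fold of 1.15 ± 0.12 (SE, adjusted p = 0.00576).

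No member of complex II or complex III was called. Their log2 folds in replicate 1 lay between -0.19 and 0.16 for the 4 Sdh genes and between -0.26 and 0.31 for the 8 members of complex III.

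In complex IV, 1 of 13 tested members was called. Cox8a had 5.95 log2 CPM in replicate 1, against 6.42, 6.28 and 6.38 in replicates 2 to 4, a log2 fold of -0.41 ± 0.09 (SE, adjusted p = 0.0375). This call did not hold in the target tables, where the log2 fold was 0.0913, nor without replicate 2, nor with no filter on low counts. Cox7a2l had 6.20 log2 CPM in replicate 1, against 7.11, 6.74 and 7.11 in replicates 2 to 4, a log2 fold of -0.80 ± 0.18 (SE, adjusted p = 0.0355). In the target tables its log2 fold was -0.65 and the adjusted p 0.0771.

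In complex V, 3 of 16 tested members were higher in replicate 1 and none lower. Atp5g1 had 5.26 log2 CPM in replicate 1, against 4.65, 4.50 and 4.596 in replicates 2 to 4, a log2 fold of 0.68 ± 0.10 (SE, adjusted p = 0.0121) that passed in all 7 alternatives. Atp5b had 8.76 log2 CPM in replicate 1, against 8.29, 8.32 and 8.22 in replicates 2 to 4, and a log2 fold of 0.49 ± 0.10 (SE, adjusted p = 0.0314). Atp5g3 had a log2 fold of 0.42 ± 0.08 (SE, adjusted p = 0.0263). The call on Atp5b was lost without replicate 2, 3 or 4, and that on Atp5g3 without replicate 2 or 4. The log2 folds were then 0.50, 0.50 and 0.38 for Atp5b and 0.44 and 0.37 for Atp5g3.

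**Figure D4:**
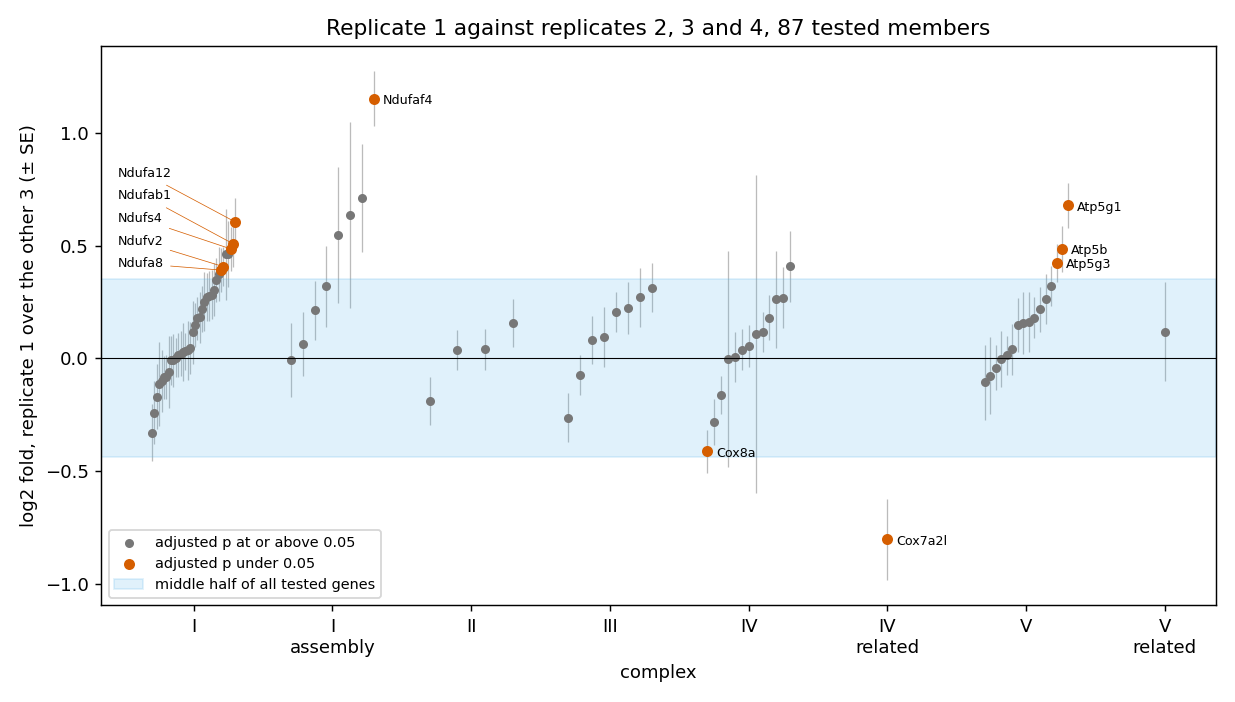
Log2 fold of replicate 1 over replicates 2, 3 and 4 for the 87 tested members, by complex, with bars of 1 SE and called members in orange. The band is the middle 50% of all tested genes, and most members lie within it, with Ndufaf4 farthest above at 1.15 and Cox7a2l farthest below at -0.80.

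Replicates 2, 3 and 4 gave no called member, and 0% of all tested genes passed in each of these comparisons by edgeR. At an unadjusted p under 0.05 edgeR passed 0 members in each, beside 277, 135 and 104 of all tested genes, or 1.97%, 0.961% and 0.741%. DESeq2 called 0 members beside 8, 3 and 17 genes, or 0.057%, 0.0214% and 0.121%. In replicate 3 the members' log2 folds had a median of -0.14, against -0.02 over all tested genes, and 11 of 87 were above 0. In replicate 2 the medians were 0.03 over the members and -0.06 over all tested genes, and in replicate 4 both were -0.01. Replicate 1, which stood apart, is among the reference libraries in each of these fits. Where a gene differs in replicate 1, the spread used by the fit is wider. For Atp5b the SE was 0.104 for replicate 1, against 0.298, 0.290 and 0.274 for replicates 2, 3 and 4. The absence of calls therefore does not show that replicates 2, 3 and 4 were alike.

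Other genes of the pathway, which the naming rule left out, were taken from a list of 45. Of 42 tested, 8 were higher and 0 lower in replicate 1, beside the 14.5% and 7.58% of all tested genes given above, and none was called in replicates 2, 3 and 4 by edgeR. Cycs, cytochrome c itself, had a mean of 8.12 TPM and a log2 fold of 1.20 ± 0.13 (SE, adjusted p = 0.00648). Cyc1, the cytochrome c1 subunit of complex III, had a mean of 14.6 TPM and a log2 fold of 0.64 ± 0.10 (SE, adjusted p = 0.0142). Of 34 tested assembly factors outside the rule 4 were called, namely Uqcc1 and Uqcc2 of complex III with log2 folds of 0.44 and 0.66, Cox10 of complex IV with 0.59 and Atpaf2 of complex V with 0.46. Of 6 tested regulators, the coactivators Ppargc1b and Pprc1 were called, with log2 folds of 0.79 and 0.77, and the factors Nrf1, Gabpa, Esrra and Tfam were not, with log2 folds between -0.12 and 0.30. Of the 13 mitochondrially encoded subunits mt-Co2 was called, with a log2 fold of 1.78 in the gene tables, beside a median of -0.56 over the 13.

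Promoters were looked up in RefSeq (GRCm38.p6) for the detected members, and 71 had an entry. The 10-base palindrome that binds NRF1, a known regulator of respiratory chain genes, was found, in the letters capitalised below, within the 250 bases before the start of the RefSeq entry in 5 of the 71, or 7.04%, against 1.90% of 7841 promoters of genes with at least 1 TPM and 0.781% of all 27025 promoters. The 5 windows of 30 bases are shown, on the gene's strand and with the palindrome in capitals, because they include Ndufaf4 and Atp5g2, described above.
Atp5g2: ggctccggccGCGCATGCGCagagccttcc
Atp5k: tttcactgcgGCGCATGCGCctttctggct
Cox6a1: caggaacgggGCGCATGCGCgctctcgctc
Ndufa11: cctgcactgcGCGCATGCGCgcacgccttg
Ndufaf4: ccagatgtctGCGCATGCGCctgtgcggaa
They lie at chr15:102671070-102671099 (minus strand) for Atp5g2, chr5:108434430-108434459 (minus strand) for Atp5k, chr5:115349101-115349130 (minus strand) for Cox6a1, chr17:56717692-56717721 (plus strand) for Ndufa11 and chr4:24897960-24897989 (plus strand) for Ndufaf4. The windows of Atp5g2, Atp5k and Cox6a1 overlap an annotated M21 exon, and that of Atp5g2 lies inside the M21 gene, whose own start is farther upstream. The core CCGGAA of ETS-family factors such as GABP, searched on both strands, was found in 21 of the 71 promoters, or 29.6%, against 25.1% of promoters of genes with at least 1 TPM and 12.2% of all. The YY1 core AAGATGGCG, searched on both strands, was found in 0 of the 71, against 1.38% of promoters of genes with at least 1 TPM and 0.607% of all. These are matches of letters and not measured binding.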

How the data were processed

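Cytosolic RNA of 4 libraries, all of 1 group, was analysed from tables that the authors deposited per library. Expected counts and TPM per gene came from the gene tables, and estimated counts and TPM per transcript, summed per gene, from the target tables, per the file headers. Per the text beside the deposited files, the build is mm10, the annotation is GENCODE M21, the gene tables come from an alignment to the transcriptome and the target tables from the reads themselves. The aligner, quantifiers and strand use were not given in the sources used here. Features that name no gene held 0.407%, 0.224%, 0.177% and 0.0267% of counts in replicates 1 to 4 and were left out of totals and tests.

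Expected counts were rounded, and the 14041 genes averaging 10 counts or more were tested with edgeR 4.0.16 under R 4.3.3, by the quasi-likelihood test with TMM scaling, each replicate against the other 3. The single replicate gives no residual degree of freedom of its own and is assumed to vary like the others. A call needs a Benjamini-Hochberg adjusted p under 0.05 over all tested genes. DESeq2 1.42.0 was an alternative, and extra-Poisson variation was tested with the deviance per gene. Log2 CPM used a prior count of 2, and complex levels a pseudocount of 1. Other alternatives were RLE size factors, no filter on low counts, a pseudocount of 0.1, members of at least 1 TPM alone, the target tables, grouping by symbol prefix and leaving out each library. Shared sequence was counted as identical runs of 60 bases between M21 transcripts, and promoters came from RefSeq. Limits from a count of 0 cover counting error only, because reads not tagged per molecule are not independent. Python 3.11.15, numpy 2.4.6, pandas 2.3.3 and matplotlib 3.10.9 did the rest.

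Members, gene lists and tests were chosen with earlier results of these data known. The rule for named genes takes the 3 highest and the lowest subunits of each complex, 8 groups of paralogs, the Sdh genes, the core subunits of complex I, up to 6 called members per replicate and direction, the 5 largest and 5 smallest SDs, the 5 largest differences between tables, and a list of pathway genes outside the rule. Atp5if1, also in that rule, matched no symbol among the members. The other members, the pseudogenes and Ndufb1-ps were named after their values were seen. The values of 1 member of complex I are not reported here.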

Additional observations from a re-analysis of the deposited data

Results flagged for a closer look

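Of 95 groups of 4 values looked at, 1 had a library far from the others. The difference of complex II minus complex I, in medians of log2(TPM + 1), was 0.377 in replicate 1, against 0.597, 0.603 and 0.606 in replicates 2, 3 and 4. Its gap to the nearest value passed Dixon's 95% critical value for 4 samples. Chance flags about 1 in 20 groups when they are independent. These groups come from the same 4 libraries and are not independent, so the number of flags cannot be compared with chance. Replicate 1 was the library with the fewest counts.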

How the results depend on the processing

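Of 107 alternative values for counts of called members, levels and differences of complexes, 92 stayed within the spread between libraries or within 1.5 times the main count, and 15 moved. The 92 include the absent calls of replicates 2, 3 and 4, where most fits have the wide spread described above. They also include complexes I, II and III over members of at least 1 TPM, unchanged because all their members were detected. The tally is therefore not a measure of stability. The count of members called in replicate 1 was 6 without replicate 2, 7 without replicate 3 and 5 without replicate 4, each leaving 1 library against 2, in place of 11. For replicates 2, 3 and 4 no member was called under any alternative run. Leaving out a library gave 64 to 72 members that vary beyond counting, and the share of all tested genes was not computed in these runs. In the target tables the levels of complexes I to V were 3.53, 3.94, 4.57, 4.37 and 4.41, and the differences from complex I were 0.40 for complex II, 1.03 for complex III and 0.88 for complex V, all still above 0. Over members of at least 1 TPM, the level of complex IV was 6.55 and its difference from complex I was 1.67, by construction, since undetected isoforms are left out. With every member grouped by symbol prefix, which puts assembly factors and Ndufa4 with complex I, complex II exceeded complex I by 0.69 and complex III by 1.33. Among 77 alternative values for the 11 members called, 56 kept their call, 20 kept their direction without passing the threshold and 1 reversed, which was Cox8a at a log2 fold of 0.0913 in the target tables, where the cause was not tested. Ndufaf4, Atp5g1 and Ndufa12 passed in all 7 alternatives. No paired analysis was possible because the libraries form 1 group. Members with few counts, such as the assembly factors and tissue isoforms, are measured with the least precision.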
